A study of Mus musculus with 8 samples.

Results

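The comparison described here sets mouse embryonic fibroblasts kept for 4 days in a 6-compound cocktail, CFAE+8+MSC, against the same kind of cells kept for 4 days in fibroblast medium (MEF). It uses 4 of the 8 RNA sequencing libraries of the series, chosen by their group labels, with 2 libraries in each group. The cells were wild-type embryonic fibroblasts in every group. CFAE+8+MSC holds CHIR99021 (which inhibits the kinase GSK-3), Forskolin (which activates adenylyl cyclase), AM580 (which activates retinoic acid receptor alpha), a compound spelled EPZ04777 in the labels (against the histone methyltransferase DOT1L), A-83-01 (written 8, an inhibitor of the TGF-beta type I receptor) and MSC2530818 (written MSC, an inhibitor of the Mediator kinases CDK8 and CDK19). The other 4 libraries came from cells given the same cocktail without MSC2530818 (CFAE+8), or the first 4 compounds with E-616452, another inhibitor of the TGF-beta type I receptor (CFAE+6). They entered the fit and give points of reference for single genes. The labels give neither doses nor the base medium of the cocktails, so the parts played by each compound and by any change of medium cannot be told apart in this comparison. The series title places the samples in chemical screens for cell reprogramming with CDK8 as a barrier.

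Embryonic fibroblasts are a mixed culture of connective tissue cells that secrete collagen-rich matrix and respond strongly to TGF-beta, which drives matrix and contractile genes through SMAD proteins. Inhibition of GSK-3 stabilises beta-catenin, which acts with TCF/LEF factors on Wnt target genes, many of them feedback inhibitors of the pathway. Retinoic acid receptors act directly on genes for retinoid uptake and breakdown, adenylyl cyclase raises cAMP and so activates protein kinase A and CREB, and CDK8 is part of a kinase module that docks on Mediator, the complex between transcription factors and RNA polymerase II. Chemical reprogramming of fibroblasts uses such compounds to move cells away from their starting expression programme.

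Library totals lay between 10958430 and 11913143 counts, and 15470 of 54532 genes had enough counts to be tested. Levels are given in CPM, counts relative to the library total after scaling with TMM factors. A gene was called when its Benjamini-Hochberg adjusted p over all genes tested, from edgeR's quasi-likelihood F test, was below 0.05. Log2 changes are CFAE+8+MSC minus MEF with their SE. Mitochondrial transcripts took 1.24% and 1.21% of the counts in the MEF libraries and 2.20% and 2.08% in the CFAE+8+MSC libraries, and the 10 most abundant genes took 6.99% and 7.12% against 4.58% and 4.55%. The first principal component of the 8 libraries held 76.3% of the variance and set MEF apart from the cocktail groups. Whether the 2 libraries of each group came from separate cultures is not stated, so the p-values reflect the spread of these libraries alone, and that spread may be technical.

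In CFAE+8+MSC 4930 genes were called higher than in MEF (31.9% of those tested) and 4981 were called lower (32.2%), while 5559 were not called. Of the called genes 1984 were at least 2-fold higher (12.8% of all tested) and 2139 were at least 2-fold lower (13.8%). The median log2 change over all genes tested was 0.01, which TMM scaling holds near 0, and the medians of the gene lists below are read against it. Counts of list members called higher or lower are likewise read against the 31.9% and 32.2% of all genes. In the direct comparison with CFAE+8 15.6% of all genes tested were called higher and 13.8% lower in CFAE+8+MSC, and in that with CFAE+6 6.21% and 4.27%. Log2 differences between cocktails are CFAE+8+MSC minus the other cocktail. The RNA came from whole cultures, so fewer cells of a type and less RNA in each cell cannot be told apart in any of these changes.

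**Figure D1:**
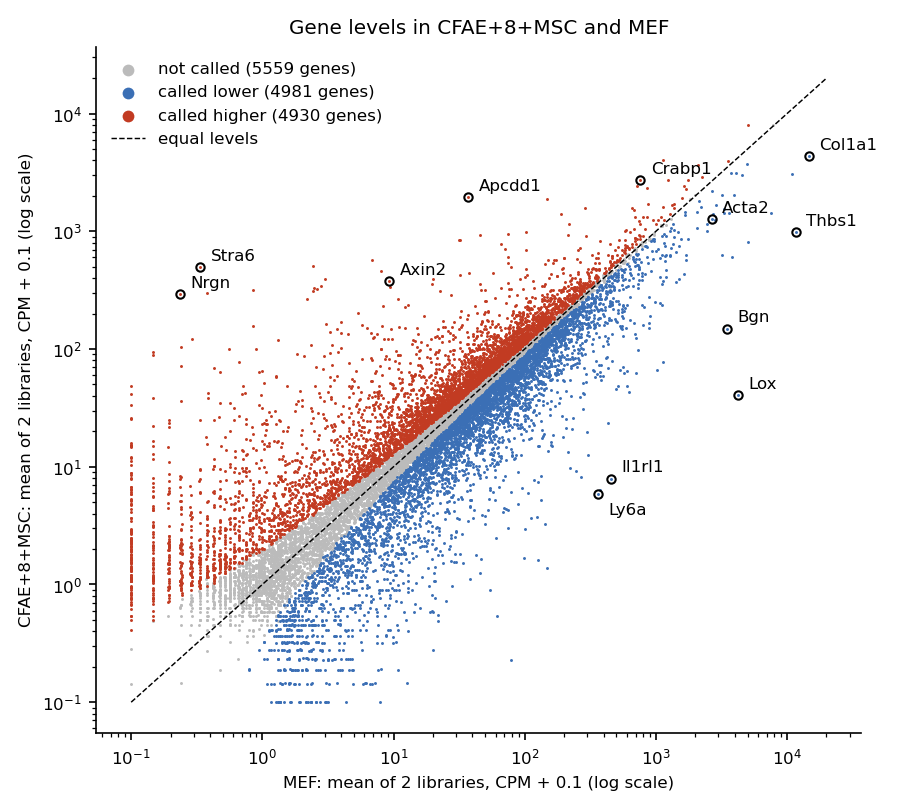
Mean level of each tested gene in MEF (x axis) and in CFAE+8+MSC (y axis), in CPM plus 0.1 on log scales, with 2 libraries in each mean. Red points are the 4930 genes called higher, blue points the 4981 called lower and grey points the 5559 not called; the dashed line marks equal levels, and 12 genes described in the text are ringed.

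The 15 rises ranked largest by edgeR's fitted log2 change were of genes that were silent or almost silent in fibroblast medium. Notumos, an antisense gene beside the Wnt inhibitor gene Notum, had no count in either MEF library and stood at 49 and 47.9 CPM in CFAE+8+MSC, at least 347-fold higher. Bounds of this kind set the MEF group at 3 counts over its 2 libraries, and like the intervals of count ratios given below they cover counting error only. Fezf2, a forebrain transcription factor gene (ENSMUSG00000021743, mm10 chromosome 14, 12342094 to 12348189), also had no MEF count and reached 39.2 and 43.9 CPM, at least 297-fold higher. Dkk1, which encodes a secreted inhibitor of Wnt co-receptors (ENSMUSG00000024868, mm10 chromosome 19, 30545863 to 30549665), went from no count to 31.6 and 34.6 CPM, at least 236-fold higher. The calcium-binding protein genes Cabp7 and Calb1 were at least 185-fold and 114-fold higher. For Fam163a the bound was 181-fold, and for Nts, which encodes the peptide neurotensin, it was 108-fold. Homeobox genes Evx1 and Msx3 were at least 106-fold and 105-fold higher, and the keratin gene Krt23 at least 85.4-fold.

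A further set had 1 to 3 counts in MEF, where only a count ratio with its 95% interval can be given. Nrgn, the gene of the neuronal calmodulin-binding protein neurogranin, stood at 284 and 303 CPM in CFAE+8+MSC after 3 counts in MEF, a ratio of 2093 (716 to 10153). Sp5, which encodes a zinc finger factor under Wnt control, had 1 count in MEF and stood at 93.5 and 93.9 CPM in the cocktail, a ratio of 2009 (360.2 to 79386). Rspo4, a secreted amplifier of Wnt signalling, had 1 count and stood at 85.7 and 91.3 CPM, a ratio of 1897 (340.1 to 74965). Stra6, through which cells take up retinol (ENSMUSG00000032327, mm10 chromosome 9, 58063788 to 58153996), and Myadml2os were also among the 15 rises chosen by edgeR's fitted log2 change. That change uses a small prior count, so the choice among genes at or near 0 in MEF rests on it, and a measured change such as that of Cadps below can exceed the bounds given here. The exons of Notumos, Cabp7 and Myadml2os share 26.6%, 12.9% and 49% of their bases with other genes, and the libraries carry no strand information, so their values are uncertain.

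Among the largest falls were matrix genes and genes that mark mesothelium or myeloid cells. Lrrn4, a mesothelial marker, stood at 8.27 and 7.24 CPM in MEF and had no count in CFAE+8+MSC, at least 58.3-fold lower. Aspn, a small leucine-rich matrix proteoglycan gene, went from 81 and 75.3 CPM to 3 counts over both CFAE+8+MSC libraries, a MEF to cocktail ratio of 588 (201 to 2856). Col10a1, the collagen gene of hypertrophic cartilage, fell from 11.9 and 13.1 CPM to 1 count, a MEF to cocktail ratio of 283 (50.3 to 11201). Anxa8, an annexin gene, fell from 148 and 149 to 1.04 and 1.54 CPM (log2 change -6.85 ± 0.14, adjusted p = 4.8e-26). Mgp, the matrix Gla protein gene that restrains calcification, fell from 132 and 119.9 to 1.47 and 1.54 CPM (log2 change -6.39 ± 0.15, adjusted p = 3.6e-25).

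Clca3a1, a calcium-activated chloride channel regulator gene, fell from 60.6 and 61.5 to 0.433 and 0.452 CPM (log2 change -7.11 ± 0.24, adjusted p = 5.5e-21). C1ra, a complement protease gene, fell from 19.5 and 20.4 to 0.0866 and 0.271 CPM (log2 change -6.82 ± 0.36, adjusted p = 4.5e-16). Trem2, a receptor gene of microglia and other macrophages, stood at 6.46 and 5.77 CPM in MEF and had 1 count in CFAE+8+MSC, a MEF to cocktail ratio of 138 (24.4 to 5496). Hk3, a hexokinase gene of blood cells, and Myo1f, a myosin gene of leukocytes, had such ratios of 134 (23.6 to 5329.7) and 129.7 (22.8 to 5163). For Xaf1, an interferon-induced gene, the ratio was 154 (27.2 to 6121), for the kininogen gene Kng2 147 (25.9 to 5829) and for the cytochrome P450 gene Cyp4a12b 159 (28.1 to 6329). Upk1b, a uroplakin gene also found in mesothelium, had a ratio of 122 (33.3 to 1012). All of these ratios rest on 1 or 2 counts in the cocktail. Lox, the fifteenth, is taken up with the matrix genes.

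**Figure D2:**
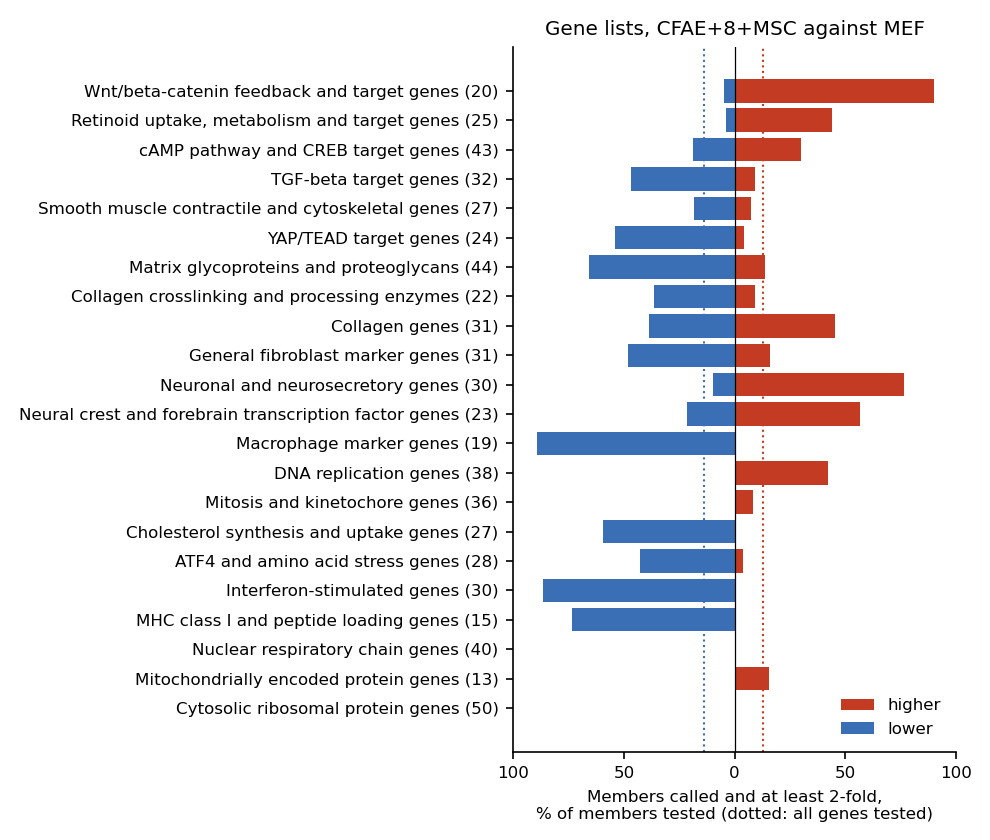
Share of the tested members of 22 gene lists (number tested in brackets) that were called and at least 2-fold higher (red, to the right) or lower (blue, to the left) in CFAE+8+MSC than in MEF, as a percentage. Dotted lines mark the same shares over all genes tested, 12.8% higher and 13.8% lower; the Wnt target and neuronal lists reach furthest to the right and the macrophage and interferon lists furthest to the left.

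Wnt feedback and target genes had the largest share of members at least 2-fold higher among the gene lists tested here. Of its 26 genes 20 had enough counts to be tested, 19 were called higher and 18 of these at least 2-fold, against 12.8% of all genes, and the median log2 change was 5.41. List members that were not tested had few or no counts in every group, apart from Mrtfa, Mrtfb, Leprel1, Ahsp and Tslpr, symbols under which the table has no row. Mrtfa, Mrtfb and Leprel1 are other names of Mkl1, Mkl2 and P3h2, which are on the same lists and were tested. All list counts here cover the tested members only. Several list members encode feedback inhibitors. Axin2, a scaffold of the beta-catenin destruction complex (ENSMUSG00000000142, mm10 chromosome 11, 108920349 to 108950783), stood at 9.22 and 9.07 CPM in the MEF libraries and 370.4 and 385 CPM in the CFAE+8+MSC libraries (log2 change 5.37 ± 0.07, adjusted p = 2.1e-30). Nkd1, an inhibitor of Dishevelled, stood at 6.65 and 6.78 CPM in MEF and 544 and 606 CPM in CFAE+8+MSC (log2 change 6.42 ± 0.08, adjusted p = 7.0e-31). Apcdd1, a membrane inhibitor of Wnt signalling, went from 37.3 and 36.6 to 1924 and 1982 CPM (log2 change 5.72 ± 0.05, adjusted p = 1.2e-35). The cocktail libraries lay far above both fibroblast libraries for all of these inhibitors. Notum, a Wnt deacylase gene, rose from 0.95 and 0.55 to 316 and 322 CPM, but its exons overlap another gene over 38.1% of their length.

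Target genes without an inhibitory role rose as well. Tnfrsf19, a receptor gene of the tumour necrosis factor family, went from 2.66 and 2.02 to 312 and 309 CPM (log2 change 7.06 ± 0.10, adjusted p = 1.5e-30). Lef1, the gene of a DNA-binding partner of beta-catenin, went from 1.43 and 1.01 to 117 and 122 CPM (log2 change 6.62 ± 0.13, adjusted p = 1.5e-26), with an exon overlap of 13.7%. Lgr5, a receptor for R-spondins and a stem cell marker in several epithelia, was the exception. It stood at 77.3 and 80.1 CPM in MEF and 14.3 and 14 CPM in CFAE+8+MSC (log2 change -2.47 ± 0.10, adjusted p = 1.0e-18), with no overlap between the groups. In CFAE+8 Lgr5 was lower still, at 5.38 and 6.62 CPM (log2 difference 1.24 ± 0.15, adjusted p = 1.1e-07).

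Of the Wnt target genes tested, 12 had a promoter in the RefSeq table (build GRCm38.p6), and 4 of them held CTTTGA, the core letters bound by TCF/LEF factors, on either strand within 250 bases before a start. That is 33.3%, beside 12.7% of the 11030 tested genes with a promoter in the table. The windows of Tnfrsf19, Lef1 and Sp5 are shown because these genes had the smallest adjusted p among list members that hold the letters in a window free of annotated UTR bases. They are RefSeq sequence, written 5′ to 3′ on the strand of the gene up to the base before the start, with the matches to CTTTGA or its reverse complement in capitals. The window of Tnfrsf19 lies at chr14:61037988-61038237, minus strand and belongs to the downstream of 2 starts, that of Lef1 at chr3:131156044-131156293, plus strand and belongs to 1 of 4 starts, and that of Sp5 at chr2:70474673-70474922, plus strand. A match is a description of the letters and not evidence of binding.
Tnfrsf19: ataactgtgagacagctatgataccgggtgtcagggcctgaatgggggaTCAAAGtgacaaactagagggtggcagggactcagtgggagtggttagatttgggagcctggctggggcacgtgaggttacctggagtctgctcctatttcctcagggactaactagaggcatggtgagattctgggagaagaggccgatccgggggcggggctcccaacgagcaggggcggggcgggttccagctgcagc
Lef1: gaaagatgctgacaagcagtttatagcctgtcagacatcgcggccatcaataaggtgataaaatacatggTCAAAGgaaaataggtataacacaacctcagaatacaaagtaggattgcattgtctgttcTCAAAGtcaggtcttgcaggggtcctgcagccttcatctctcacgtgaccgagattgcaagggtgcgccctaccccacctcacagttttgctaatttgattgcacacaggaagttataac
Sp5: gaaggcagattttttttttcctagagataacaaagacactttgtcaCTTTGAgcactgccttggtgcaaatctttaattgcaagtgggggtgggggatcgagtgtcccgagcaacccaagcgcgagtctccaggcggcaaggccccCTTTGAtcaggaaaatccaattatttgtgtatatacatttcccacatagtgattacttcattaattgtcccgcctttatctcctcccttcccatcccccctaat

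Wnt ligands, receptors and secreted antagonists were divided, with 19 of 37 tested called higher and 14 lower (median log2 change 0.51). Receptors appeared on both sides. Fzd10 stood at 0.76 and 0.916 CPM in MEF and 65.8 and 62.4 CPM in CFAE+8+MSC (log2 change 6.26 ± 0.16, adjusted p = 1.1e-23), and Fzd6 rose by 2.46 ± 0.08, whereas Fzd2 stood at 228 and 238 CPM in MEF and 75.3 and 71.3 CPM in CFAE+8+MSC (log2 change -1.67 ± 0.06, adjusted p = 2.0e-20). Ror2, a receptor of non-canonical Wnt ligands, and Kremen1, a receptor for DKK proteins, rose by 2.01 ± 0.06 and 2.02 ± 0.05 on the log2 scale. Among secreted antagonists Sfrp1 and Sfrp4 changed by -1.09 ± 0.07 and -4.21 ± 0.21, Sfrp5, Frzb and Dkk2 were called higher and Sfrp2 was not called. Wls, which carries Wnt ligands to the cell surface, changed by -0.95 ± 0.05.

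**Figure D3:**
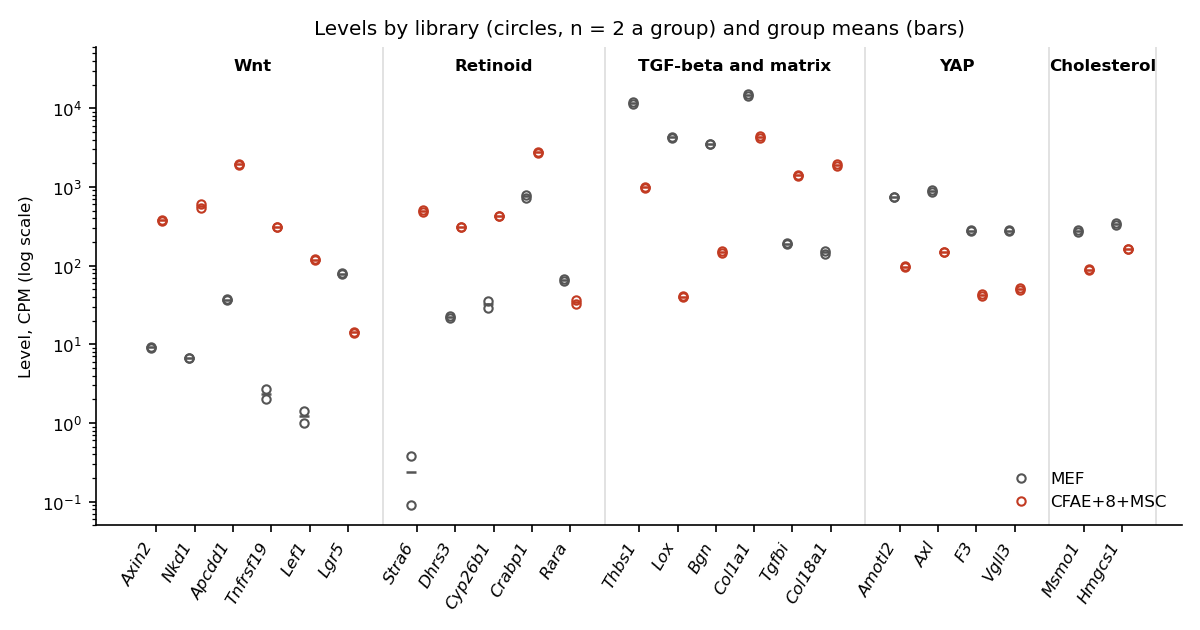
Level of 23 genes in each library (circles, 2 a group) with the group mean (bar), in CPM on a log scale, grouped by pathway. MEF is grey and CFAE+8+MSC red; circles of a group lie close together for most genes, and Stra6 in MEF, with 0.38 and 0.0916 CPM, has the widest spread on this scale.

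Retinoid genes were more often higher than lower. The list had 25 tested members, of which 15 were called higher, 8 lower, and 11 at least 2-fold higher against 1 at least 2-fold lower. Stra6 stood at 0.38 and 0.0916 CPM in MEF and 515 and 475 CPM in CFAE+8+MSC (log2 change 11.05 ± 0.13, adjusted p = 9.2e-32). Dhrs3, a retinaldehyde reductase gene, went from 21.9 and 22.8 to 305 and 313 CPM (log2 change 3.79 ± 0.07, adjusted p = 4.2e-28). Cyp26b1, which degrades retinoic acid, went from 35.7 and 28.9 to 425 and 422 CPM (log2 change 3.71 ± 0.07, adjusted p = 9.6e-28), and its relative Cyp26a1, with no MEF count, was at least 44.9-fold higher. Crabp1, a cytoplasmic retinoic acid binding protein gene, was already abundant in MEF and went from 791 and 729 to 2812 and 2671 CPM (log2 change 1.85 ± 0.04, adjusted p = 7.7e-26). In CFAE+8+MSC it was among the 10 protein-coding genes with the highest level per kilobase. Its relative Crabp2 was called lower, a call lost without MEF replicate 1 (edgeR adjusted p = 0.19) or CFAE+8+MSC replicate 1 (0.078) or 2 (0.16), and the retinoid enzyme genes Rdh5 and Aldh1a3 were not called.

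Receptor genes moved in both directions. Rarb, a direct target of retinoic acid receptors, went from 0.19 and 1.01 to 41.2 and 41.9 CPM (log2 change 6.10 ± 0.23, adjusted p = 1.3e-19), with an exon overlap of 38.4%. Rara stood at 62.8 and 66.9 CPM in MEF and 37 and 32.1 CPM in the cocktail (log2 change -0.91 ± 0.09, adjusted p = 3.0e-10), Rxra at 115 and 121 CPM in MEF and 80.5 and 76.7 CPM in CFAE+8+MSC (log2 change -0.59 ± 0.06, adjusted p = 2.3e-09), and Rarg at 147 and 153 CPM in MEF and 122 and 123 CPM in CFAE+8+MSC (log2 change -0.29 ± 0.06, adjusted p = 3.6e-05). Those 3 receptor genes were therefore lower in both cocktail libraries.

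The cAMP list moved both ways, with 21 of 43 tested called higher and 17 lower and a median of 0.21. Genes of cAMP turnover stood on both sides. Adcy1, an adenylyl cyclase, went from 10.9 and 10.8 to 153 and 154 CPM (log2 change 3.82 ± 0.08, adjusted p = 1.1e-25), and the phosphodiesterases Pde4d, Pde3b and Pde7b rose by 2.55 ± 0.07, 2.65 ± 0.10 and 2.25 ± 0.10. Prkar1a, a regulatory subunit of protein kinase A, stood at 472 and 482 CPM in MEF and 540.2 and 563 CPM in CFAE+8+MSC (log2 change 0.21 ± 0.04, adjusted p = 1.5e-04). The cyclase genes Adcy3, Adcy4, Adcy6 and Adcy7 and the phosphodiesterase genes Pde1a, Pde1b, Pde4b and Pde8b were called lower. Among other lower members, Ptgs2, a CREB-responsive prostaglandin synthase gene, stood at 229 and 227 CPM in MEF and 95.9 and 89.7 CPM in CFAE+8+MSC (log2 change -1.30 ± 0.07, adjusted p = 1.8e-16), and Akap12, an anchor of protein kinase A, fell by 1.35 on the log2 scale. Cited2 and Bdnf changed by -1.51 ± 0.07 and -1.60 ± 0.10. CREB target genes on the list went both ways too. Areg (edgeR adjusted p = 6.5e-17), Crem, Sik1, Nr4a2, Rgs2, Gem and Ppargc1a were called higher. Nr4a1, Per1 and Dusp1 were called lower, and Nr4a3 was not called. The full cAMP element TGACGTCA stood within 250 bases before a start in 3 of 35 matched list genes (8.6%), beside 3.0% of the tested genes with a promoter in the table, and its first 5 letters, TGACG, in 19 of 35 (54.3%) beside 30.0%.

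Adenylyl cyclase genes, on whose products Forskolin acts, are counted in the cAMP list above, where Adcy1 was past 2-fold. Most other genes whose products the compounds act on changed by less than 2-fold at the RNA level. Of these other genes 10 were tested, with 3 called higher, 4 lower and 3 neither. Rarb, given above, was the only one of them past 2-fold. Cdk8 stood at 70.7 and 65.2 CPM in MEF and 70.2 and 73.3 CPM in CFAE+8+MSC (log2 change 0.08 ± 0.07, adjusted p = 0.37) and was not called. Gsk3b, at 159 and 159 CPM in MEF and 170.4 and 160.3 CPM in CFAE+8+MSC, and Tgfbr1, at 60.2 and 65.8 CPM in MEF and 57.2 and 60.3 CPM in CFAE+8+MSC, were not called either (adjusted p = 0.42 and 0.26). The libraries of the groups overlapped for Cdk8 and Tgfbr1, and for Gsk3b both cocktail libraries lay slightly above the fibroblast libraries. Cdk19 was lower, at 26.9 and 26.3 CPM in MEF and 16.6 and 20.6 CPM in CFAE+8+MSC (log2 change -0.52 ± 0.12, adjusted p = 4.3e-04), and Dot1l was higher, at 104 and 105 CPM in MEF and 163 and 156 CPM in CFAE+8+MSC (log2 change 0.61 ± 0.06, adjusted p = 2.4e-10). Within the Mediator kinase module Med12l rose (log2 change 1.22 ± 0.23), with an exon overlap of 17.3%, and was the only member past 2-fold. Med13l fell by 0.96 on the log2 scale, and Med12 and Med13 were not called, although without CFAE+8+MSC replicate 2 Med13 was (edgeR adjusted p = 0.040). Ccnc, the cyclin partner of CDK8, changed by -0.29 ± 0.13 (adjusted p = 0.043). That call was lost without MEF replicate 1 (0.13), MEF replicate 2 (0.11) or CFAE+8+MSC replicate 2 (0.25) and in DESeq2 (0.19). Of 25 core Mediator genes tested 8 were called higher and 5 lower, with a median of 0.03, and Med16 was the only member past 2-fold, on the lower side. In the DOT1L list, 6 of 15 were higher and 4 lower, and Mllt3, a chromatin reader that recruits DOT1L, rose from 29.9 and 32.5 to 151 and 147 CPM (log2 change 2.26 ± 0.07, adjusted p = 1.2e-21).

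TGF-beta target genes were mostly lower in CFAE+8+MSC. Of 32 tested 22 were called lower, 15 of them at least 2-fold (13.8% of all genes), and 8 higher, with a median of -0.79. Thbs1, the gene of the matricellular protein thrombospondin 1 (ENSMUSG00000040152, mm10 chromosome 2, 118111876 to 118127133), stood at 11356 and 11974 CPM in the MEF libraries, among the 10 protein-coding genes with the highest level per kilobase there, and at 982 and 988 CPM in CFAE+8+MSC (log2 change -3.57 ± 0.04, adjusted p = 2.1e-33). Both cocktail libraries lay more than 10-fold below the fibroblast libraries. In CFAE+8, without MSC2530818, the level was lower again, at 259 and 258 CPM (log2 difference 1.93 ± 0.04, adjusted p = 4.0e-26), and in CFAE+6 it was 649 and 621 CPM (log2 difference 0.63 ± 0.03, adjusted p = 3.9e-14).

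The list had members that rose. Tgfbi, a secreted matrix protein gene named for its induction by TGF-beta, stood at 192 and 186 CPM in MEF and 1378 and 1433 CPM in CFAE+8+MSC (log2 change 2.90 ± 0.04, adjusted p = 1.0e-29). Angptl4, a secreted lipase inhibitor gene, went from 11.3 and 13.1 to 229 and 224 CPM (log2 change 4.21 ± 0.08, adjusted p = 1.5e-27), and Cthrc1, a secreted collagen triple helix protein gene, from 77.6 and 80.6 to 499.7 and 496 CPM (log2 change 2.65 ± 0.05, adjusted p = 1.2e-26). Snai1, a transcription factor of mesenchymal transition, rose by 0.99 ± 0.06.

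Among the genes of the pathway itself 9 of 29 tested were higher and 17 lower. Ligand genes went both ways, with Tgfb1 and Tgfb3 called lower. Tgfb2 stood at 72.1 and 76.9 CPM in MEF and 541 and 529.6 CPM in CFAE+8+MSC (log2 change 2.84 ± 0.05, adjusted p = 3.6e-27), and the activin subunit gene Inhbb went from 209 and 215 to 918 and 952 CPM (log2 change 2.14 ± 0.04, adjusted p = 3.1e-26). Inhba, which encodes another activin subunit, rose by 1.06 ± 0.05. The receptor genes Tgfbr2 and Tgfbr3 fell by 1.25 and 1.47 on the log2 scale, Acvr2b was called higher and Tgfbr1 was not called. Ltbp2, a latent TGF-beta binding protein gene, fell from 525 and 547 to 67 and 65.7 CPM (log2 change -3.01 ± 0.06, adjusted p = 2.4e-27), while its relative Ltbp4 was called higher. Ski, a SMAD corepressor gene, fell by 1.28.

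Smooth muscle contractile genes were lower for the most part, and a few rose. Of 27 tested 19 were called lower and 5 higher, with a median of -0.48, and 5 were at least 2-fold lower (13.8% of all genes). Acta2, smooth muscle actin (ENSMUSG00000035783, mm10 chromosome 19, 34241090 to 34255336), stood at 2677 and 2651 CPM in MEF and 1278 and 1259 CPM in CFAE+8+MSC (log2 change -1.07 ± 0.04, adjusted p = 8.2e-21). The other cocktails held less of it, 65.5 and 63.3 CPM in CFAE+8 (log2 difference 4.30 ± 0.05, adjusted p = 1.8e-32) and 597 and 606 CPM in CFAE+6 (log2 difference 1.08 ± 0.04, adjusted p = 3.0e-18). Cald1, Actn1 and Tpm2, which bind or bundle actin filaments, fell by 0.96, 0.93 and 0.99 on the log2 scale. Flna, which crosslinks actin filaments, stood at 3990.3 and 4173 CPM in MEF and 3055 and 3166 CPM in CFAE+8+MSC (log2 change -0.39 ± 0.03, adjusted p = 1.5e-11). Tagln, another classical member, fell from 9.98 and 11.4 to 3.29 and 1.54 CPM, but 67.9% of its exon length overlaps another gene and its level is uncertain.

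Among the members that rose was the smooth muscle myosin. Myh11, the myosin heavy chain gene of smooth muscle (ENSMUSG00000018830, mm10 chromosome 16, 14194535 to 14291372), stood at 43.1 and 51.5 CPM in MEF and 137 and 139.7 CPM in CFAE+8+MSC (log2 change 1.55 ± 0.08, adjusted p = 1.4e-16). It stood at 1.79 and 1.44 CPM in CFAE+8 (log2 difference 6.42 ± 0.14, adjusted p = 1.1e-24) and 27.1 and 25.4 CPM in CFAE+6 (log2 difference 2.40 ± 0.08, adjusted p = 3.0e-18). All 4 libraries of those cocktails lay below both MEF libraries, and both CFAE+8+MSC libraries lay above them. Mylk, the kinase that activates smooth muscle myosin, stood at 37.1 and 35.4 CPM in MEF and 65.2 and 62.4 CPM in CFAE+8+MSC (log2 change 0.82 ± 0.09, adjusted p = 1.5e-09), and Synpo2, an actin-associated protein gene, at 9.98 and 9.8 CPM in MEF and 18.5 and 18.7 CPM in CFAE+8+MSC (log2 change 0.91 ± 0.16, adjusted p = 1.2e-05). Cnn1, which encodes calponin, stood at 104 and 105 CPM in MEF and 122 and 116 CPM in CFAE+8+MSC (log2 change 0.18 ± 0.06, adjusted p = 0.013). That call of Cnn1 was lost without MEF replicate 1 (edgeR adjusted p = 0.051), MEF replicate 2 (0.056) or CFAE+8+MSC replicate 1 (0.11). In CFAE+8 Cnn1 was at 8.54 and 9.16 CPM (log2 difference 3.75 ± 0.09, adjusted p = 2.4e-23). Myocd, the gene of the cofactor that drives smooth muscle genes with SRF, was low in every library, at 0.76 and 0.824 CPM in MEF and 3.2 and 4.16 CPM in CFAE+8+MSC (log2 change 2.21 ± 0.39, adjusted p = 1.2e-05). Among the RefSeq promoters of the list, 6 of 21 (28.6%) held a CArG box, the element bound by SRF, within 250 bases before a start, beside 1.5% of the tested genes with a promoter in the table. The genes with the box were Vcl, Cnn2, Myl9, Actc1 and Acta1, all called lower, and Srf, which was not called. No member that rose was among them.

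**Figure D4:**
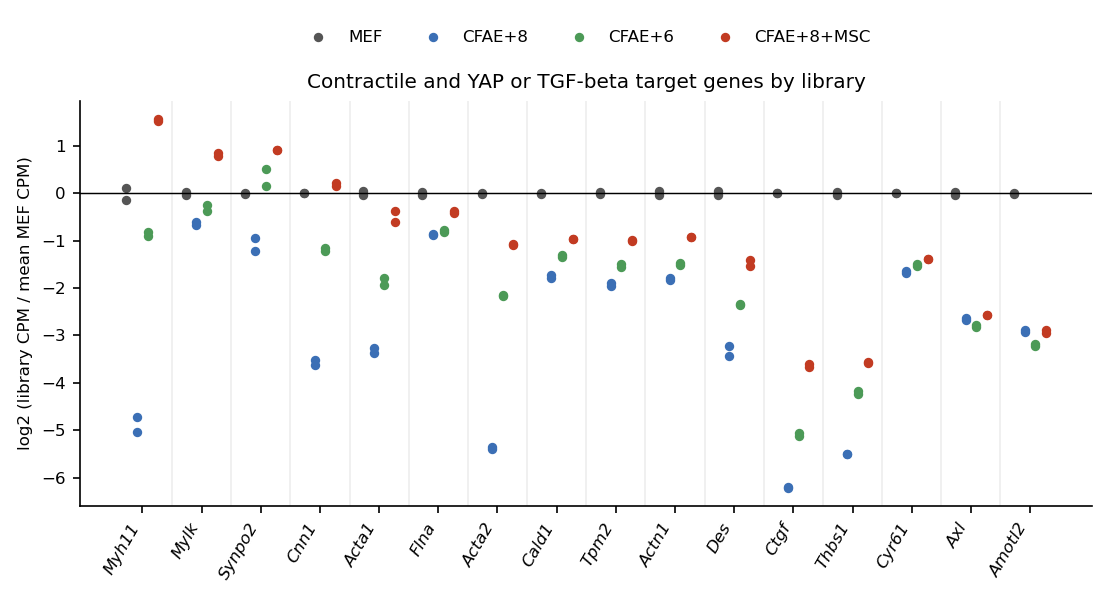
Level of 16 contractile, TGF-beta target and YAP target genes in each of the 8 libraries, as log2 of the library's CPM over the mean MEF CPM, so that 0 is the MEF level. Points are single libraries, 2 a group; for Myh11, Mylk and Synpo2 both CFAE+8+MSC points lie above 0, while for Amotl2, Axl and Cyr61 the cocktail groups lie close together below 0.

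Some genes were called in opposite directions against MEF in CFAE+8+MSC and in CFAE+8. Both comparisons share the MEF libraries, so the direct difference between the cocktails is the test. Vgf, a neurosecretory peptide precursor gene, stood at 7.13 and 7.6 CPM in MEF, 137 and 131 CPM in CFAE+8+MSC and 6.23 and 4.92 CPM in CFAE+8 (log2 difference 4.58 ± 0.11, adjusted p = 2.1e-23). Zim1, an imprinted zinc finger gene, stood at 28.7 and 28.9 CPM in MEF, 95.1 and 101 CPM in CFAE+8+MSC and 16.6 and 16.3 CPM in CFAE+8 (log2 difference 2.57 ± 0.09, adjusted p = 2.1e-19). Dio3, the imprinted deiodinase that inactivates thyroid hormone, stood at 4.28 and 5.22 CPM in MEF, 15.1 and 14.7 CPM in CFAE+8+MSC and 2.48 and 2.04 CPM in CFAE+8 (log2 difference 2.72 ± 0.21, adjusted p = 1.6e-11). For all 3 genes both CFAE+8+MSC libraries lay above every other library of these groups. Against CFAE+6, also without MSC2530818, the log2 difference of Zim1 was only 0.28. That call was lost in edgeR's test against a 1.2-fold change and in DESeq2 (adjusted p = 0.099). Other genes were lower in CFAE+8+MSC than in MEF and higher in CFAE+8. Rarg, described above, stood at 255 and 246 CPM in CFAE+8 (log2 difference -1.03 ± 0.05, adjusted p = 2.6e-15). Its log2 difference from CFAE+6 was -0.30, a call lost in edgeR's test against a 1.2-fold change (adjusted p = 0.85). Steap4, a metalloreductase gene, stood at 3.9 and 2.29 CPM in MEF, 0.866 and 0.995 CPM in CFAE+8+MSC and 12.7 and 13.1 CPM in CFAE+8 (log2 difference -3.79 ± 0.30, adjusted p = 2.4e-11). Col16a1, a collagen gene, stood at 269 and 282 CPM in MEF, 240.4 and 245 CPM in CFAE+8+MSC and 491 and 487 CPM in CFAE+8 (log2 difference -1.01 ± 0.05, adjusted p = 1.8e-16). Against CFAE+6 too, Myh11 was such a gene. Fat1, an atypical cadherin gene, stood at 982 and 1008 CPM in MEF, 1136 and 1152 CPM in CFAE+8+MSC and 821 and 770.3 CPM in CFAE+6 (log2 difference 0.52 ± 0.04, adjusted p = 8.8e-11). The changes of Rarg, Col16a1 and Fat1 from MEF to CFAE+8+MSC were small (log2 -0.29, -0.18 and 0.20). Their calls were lost in edgeR's test against a 1.2-fold change (adjusted p = 0.21, 0.91 and 0.90).

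Genes of the YAP/TEAD list were lower as a group. Beside target genes the list and its counts hold factors of the pathway itself, namely Yap1, Wwtr1, Tead1, Tead2, Tead3, Tead4 and Vgll3. Of 24 tested 17 were called lower, 13 of them at least 2-fold (32.2% and 13.8% of all genes), and 5 higher, with a median of -1.15. Ctgf, a matricellular growth factor gene shared with the TGF-beta targets, went from 602 and 604 to 47.3 and 49.7 CPM (log2 change -3.64 ± 0.06, adjusted p = 7.6e-29), with an exon overlap of 23.2%. Amotl2, a feedback inhibitor of YAP, went from 733 and 737 to 95.2 and 99.3 CPM (log2 change -2.92 ± 0.05, adjusted p = 1.0e-27), and Axl, a receptor tyrosine kinase gene, from 872 and 914 to 150.3 and 150.1 CPM (log2 change -2.57 ± 0.05, adjusted p = 4.6e-27). F3, tissue factor, stood at 281 and 276 CPM in MEF and 43.6 and 41.6 CPM in CFAE+8+MSC (log2 change -2.71 ± 0.07, adjusted p = 3.7e-24), and Cyr61 at 1079 and 1074 CPM in MEF and 412 and 410.2 CPM in CFAE+8+MSC (log2 change -1.39 ± 0.04, adjusted p = 4.5e-22). Yap1 itself stood at 292 and 311 CPM in MEF and 289 and 298 CPM in CFAE+8+MSC and was not called (adjusted p = 0.53). Rises were seen for Fjx1 (2.85 ± 0.09), Tead2 (0.97 ± 0.07) and Amotl1 (0.95 ± 0.05).

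The TEAD core letters CATTCC stood within 250 bases before a start in 10 of 15 matched genes of the YAP/TEAD list (66.7%), beside 12.8% of the tested genes with a promoter in the table. The genes with the letters include Yap1, Wwtr1, Tead3 and Vgll3, factors of the pathway itself. Axl and Vgll3, a TEAD cofactor gene that fell from 273 and 283 to 52.5 and 49.6 CPM (log2 change -2.44 ± 0.07, adjusted p = 5.1e-23), are shown as the fallen members with the smallest adjusted p that hold the letters in a window free of annotated UTR bases. The RefSeq windows (GRCm38.p6) lie at chr7:25788734-25788983, minus strand and at chr16:65814939-65815188, plus strand. Capitals mark CATTCC or its reverse complement.
Axl: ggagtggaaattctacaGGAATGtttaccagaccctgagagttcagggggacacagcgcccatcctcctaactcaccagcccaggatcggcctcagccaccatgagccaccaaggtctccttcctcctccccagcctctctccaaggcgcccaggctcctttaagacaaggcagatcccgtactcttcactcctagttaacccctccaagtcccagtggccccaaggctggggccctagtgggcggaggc
Vgll3: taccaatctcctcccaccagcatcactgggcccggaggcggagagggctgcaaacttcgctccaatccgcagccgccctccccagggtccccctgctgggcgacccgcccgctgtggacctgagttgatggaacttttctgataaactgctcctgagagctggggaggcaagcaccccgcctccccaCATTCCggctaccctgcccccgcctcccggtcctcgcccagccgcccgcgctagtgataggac

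The matrix genes fell unevenly. Among glycoproteins and proteoglycans 35 of 44 tested were called lower, 29 of them at least 2-fold, and 7 higher, with a median of -1.76. Bgn, the gene of the proteoglycan biglycan (ENSMUSG00000031375, mm10 chromosome X, 73483602 to 73495933), went from 3483 and 3542 to 152 and 146 CPM (log2 change -4.56 ± 0.05, adjusted p = 2.1e-33). Fbln5, which assembles elastic fibres, went from 1019.8 and 1025 to 69.7 and 61.8 CPM (log2 change -3.96 ± 0.06, adjusted p = 7.2e-30), and Fbln2 from 4975 and 5184 to 817 and 819 CPM (log2 change -2.63 ± 0.04, adjusted p = 2.9e-30). Fn1, fibronectin, stood at 10534 and 11119 CPM in MEF and 3011 and 3101 CPM in CFAE+8+MSC (log2 change -1.82 ± 0.03, adjusted p = 5.9e-28). In the other direction, Fbln1 rose from 211 and 226 to 1168 and 1156 CPM (log2 change 2.41 ± 0.04, adjusted p = 9.3e-28), although it belongs to the same fibulin family as Fbln2 and Fbln5. The laminin chain gene Lama1 rose from 7.89 and 9.98 to 117 and 127 CPM (log2 change 3.77 ± 0.10, adjusted p = 1.3e-23).

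Enzymes that crosslink and process collagen were mostly lower, and among them was Lox, which began from a far higher level than the other 14 of the 15 largest falls. Lox, the lysyl oxidase that crosslinks collagen and elastin and a TGF-beta target, stood at 4168 and 4341 CPM in the MEF libraries and 39.7 and 41 CPM in the CFAE+8+MSC libraries (log2 change -6.72 ± 0.06, adjusted p = 1.9e-34). Its relatives Loxl1 and Loxl3 changed by -2.50 ± 0.05 and -2.27 ± 0.06, and Pcolce, an enhancer of procollagen processing, by -2.25 ± 0.05. Loxl2 moved the other way, from 353 and 385 to 488 and 461 CPM (log2 change 0.36 ± 0.05, adjusted p = 2.1e-07). The procollagen proteinase genes Adamts14, Adamts3 and Adamts2 rose by 2.11 ± 0.07, 2.80 ± 0.22 and 0.52 ± 0.05. In the whole list 16 of 22 tested were lower and 5 higher, with a median of -0.84.

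Collagen genes split nearly evenly, with 14 of 31 tested called higher, each of them at least 2-fold, and 16 lower, 12 at least 2-fold. The type I collagen genes were on the lower side. Col1a1, the main chain of type I collagen (ENSMUSG00000001506, mm10 chromosome 11, 94936224 to 94953042), stood at 14456 and 14996 CPM in MEF and 4188 and 4459.8 CPM in CFAE+8+MSC (log2 change -1.77 ± 0.04, adjusted p = 1.7e-26), and Col1a2 at 7524 and 7666 CPM in MEF and 1417 and 1444 CPM in CFAE+8+MSC (log2 change -2.41 ± 0.03, adjusted p = 1.6e-30). Col5a2, Col12a1 and Col8a1 changed by -2.36 ± 0.04, -2.67 ± 0.04 and -3.23 ± 0.06. Genes of the microfibrillar type VI collagen, which surrounds cells, rose together. Col6a1 went from 1119 and 1162 to 3925 and 4181 CPM (log2 change 1.83 ± 0.04, adjusted p = 1.1e-26), Col6a2 from 709 and 724 to 2402 and 2501 CPM (log2 change 1.77 ± 0.04, adjusted p = 4.6e-26) and Col6a3 from 836 and 888 to 2306 and 2367 CPM (log2 change 1.44 ± 0.04, adjusted p = 7.5e-24). Col18a1, a basement membrane collagen gene (ENSMUSG00000001435, mm10 chromosome 10, 77052178 to 77166548), went from 141 and 155 to 1826 and 1937 CPM (log2 change 3.67 ± 0.05, adjusted p = 6.8e-31), and Col26a1 from 0.475 and 1.01 to 149.8 and 166 CPM (log2 change 7.73 ± 0.15, adjusted p = 3.4e-27).

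Proteases of the matrix and their inhibitors also divided, with 15 of 29 tested higher and 13 lower. Mmp11, a stromal metalloprotease gene, went from 66.7 and 65.9 to 788 and 764 CPM (log2 change 3.55 ± 0.05, adjusted p = 3.6e-30), and Mmp9, a gelatinase gene, from 1.52 and 3.39 to 73.4 and 68 CPM (log2 change 4.84 ± 0.16, adjusted p = 3.2e-21). Plat, tissue plasminogen activator, rose by 1.39 ± 0.05. Adamts5, an aggrecanase gene, went from 259 and 280.3 to 9.01 and 7.05 CPM (log2 change -5.07 ± 0.11, adjusted p = 8.1e-26). The metalloprotease inhibitor genes Timp1 and Timp2 changed by -2.58 ± 0.06 and -1.10 ± 0.04.

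General fibroblast markers fell more often than they rose, 19 against 11 of 31 tested, with a median of -0.79. The summed level of the list was 48649 and 50242 CPM in the MEF libraries and 19513 and 20015 CPM in the CFAE+8+MSC libraries. Ly6a, the surface protein Sca-1 (ENSMUSG00000075602, mm10 chromosome 15, 74994877 to 74998031), went from 376 and 354 to 5.46 and 6.15 CPM (log2 change -5.98 ± 0.09, adjusted p = 2.0e-29). Other members went the opposite way. Twist1, a basic helix-loop-helix factor of mesenchyme, rose from 103 and 103 to 962 and 995 CPM (log2 change 3.25 ± 0.05, adjusted p = 1.1e-29), Thy1, a surface marker of fibroblasts, from 672 and 691 to 1521 and 1492 CPM (log2 change 1.14 ± 0.04, adjusted p = 2.0e-21), and the homeobox gene Prrx2 by 1.26 ± 0.06. Some members of the list, Col1a1, Fn1 and Thy1 among them, were still abundant in all 4 libraries, although Col1a1 and Fn1 were called lower in CFAE+8+MSC.

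Markers of other cells that such cultures can hold moved as well, and their part in the changes of other lists was not tested. Macrophage markers stood apart: 17 of 19 tested were called lower, each at least 2-fold, none was called higher, and the summed level was 277 and 276 CPM in MEF and 33 and 35.9 CPM in CFAE+8+MSC. Lyz2, the lysozyme of myeloid cells, stood at 125 and 123 CPM in MEF and 4.24 and 2.98 CPM in CFAE+8+MSC (log2 change -5.09 ± 0.12, adjusted p = 2.0e-24), and Csf1r, the receptor for the macrophage growth factor, at 10.7 and 11.6 CPM in MEF and 1.56 and 2.98 CPM in CFAE+8+MSC (log2 change -2.31 ± 0.26, adjusted p = 9.4e-09). Adgre1, the gene of the F4/80 antigen, stood at 5.23 and 5.4 CPM in MEF and 0.779 and 0.633 CPM in CFAE+8+MSC (log2 change -2.91 ± 0.38, adjusted p = 1.2e-07). Itgam had no count in CFAE+8+MSC and was at least 11.6-fold lower, but 68.7% of its exon length overlaps another gene. Cd68 was not called, at 13.1 and 13.4 CPM in MEF and 10.3 and 11.5 CPM in CFAE+8+MSC (adjusted p = 0.14), and its product is also found in the lysosomes of other cells.

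Mesothelial markers also fell in part, with 11 of 18 lower, 10 at least 2-fold, and 4 higher. The summed level of that list went from 1092 and 1138 to 409.9 and 392 CPM. Most of this sum in both groups came from the member Igfbp5, given below with the insulin-like growth factor binding proteins. Msln, mesothelin, fell from 98.5 and 104 to 3.2 and 2.53 CPM (log2 change -5.14 ± 0.15, adjusted p = 1.6e-22) and Upk3b from 18.8 and 17.5 to 1.47 and 1.09 CPM (log2 change -3.82 ± 0.27, adjusted p = 3.7e-13). The members that rose were Krt8, Krt18, Rspo1 and Aldh1a2, while Wt1, Cldn15 and Krt19 were not called. Krt8 and Krt18 form the keratin filaments of simple epithelia. Krt8 went from 1.52 and 2.2 to 11 and 10.3 CPM (log2 change 2.51 ± 0.25, adjusted p = 6.7e-10) and Krt18 from 5.23 and 6.5 to 20.8 and 18.7 CPM (log2 change 1.75 ± 0.17, adjusted p = 3.8e-10).

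Endothelial markers did not move one way, with 5 higher, 4 lower and 6 not called. Esam, an endothelial adhesion molecule gene, rose from 1.14 and 1.19 to 60.1 and 57.7 CPM (log2 change 5.66 ± 0.17, adjusted p = 2.2e-22) and Kdr, a VEGF receptor, from 13.5 and 14.4 to 45.6 and 43.5 CPM (log2 change 1.68 ± 0.11, adjusted p = 3.7e-14), while the VEGF receptors Flt1 and Flt4 fell by 2.30 and 2.54 on the log2 scale. Skeletal muscle genes were called lower in 13 of 21 (8 in DESeq2), with a summed level of 235 and 219 CPM in MEF and 152 and 163 CPM in CFAE+8+MSC. Glial genes were split, 5 higher and 5 lower of 12, or 3 and 3 without CFAE+8+MSC replicate 1 and 3 lower without MEF replicate 2. No red blood cell gene had enough counts to be tested. In the cartilage and bone list the cartilage collagen Col2a1 fell from 233 and 262 to 9.01 and 9.22 CPM (log2 change -4.77 ± 0.09, adjusted p = 1.1e-26) and the osteoblast genes Sp7 and Ibsp rose, Sp7 from 1.24 and 2.2 to 33.4 and 34.4 CPM and Ibsp from 0.475 and 0.0916 to 41 and 42.8 CPM. The list as a whole went both ways, with 6 of 17 tested higher, the cartilage genes Col9a1, Matn3 and Matn4 among them, and 9 lower, including the bone gene Spp1.

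**Figure D5:**
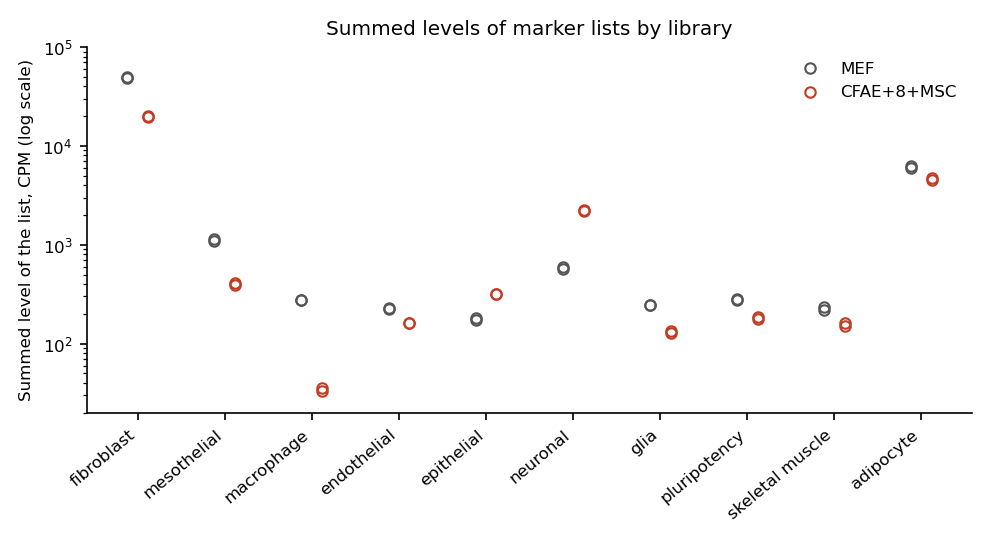
Summed level of 10 marker lists in each library (circles, 2 a group), in CPM on a log scale, for MEF (grey) and CFAE+8+MSC (red). The macrophage list stood at 277 and 276 CPM in MEF and 33 and 35.9 CPM in CFAE+8+MSC, and the neuronal list at 566 and 593 CPM and 2202 and 2233 CPM.

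Neuronal and neurosecretory genes were higher in CFAE+8+MSC. Of 30 tested 24 were called higher, 23 of them at least 2-fold (12.8% of all genes), and 3 lower, with a median of 3.21. The summed level went from 566 and 593 CPM to 2202 and 2233 CPM. Cadps, a gene of vesicle release (ENSMUSG00000054423, mm10 chromosome 14, 12372563 to 12823079), went from 0.19 and 0.366 to 293 and 301 CPM (log2 change 10.05 ± 0.13, adjusted p = 9.9e-31). Sox11, a transcription factor gene of immature neurons and of mesenchyme, went from 34.7 and 39.9 to 436 and 446 CPM (log2 change 3.56 ± 0.06, adjusted p = 7.5e-28), and the neurofilament gene Nefm from 2.85 and 4.4 to 143 and 154 CPM, with an exon overlap of 19.2%. The list did not move as 1 block. Ncam1, the neural cell adhesion molecule, fell from 186 and 194 to 67.1 and 63.3 CPM (log2 change -1.54 ± 0.07, adjusted p = 2.5e-18), and Map2, a dendritic microtubule protein gene, from 15.9 and 18 to 2.17 and 1.9 CPM (log2 change -3.06 ± 0.22, adjusted p = 6.8e-13).

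Transcription factor genes of the neural crest and forebrain were higher in 13 and lower in 5 of 23 tested, out of 38 on the list. Msx1, a homeobox gene induced by Wnt and BMP signalling (ENSMUSG00000048450, mm10 chromosome 5, 37820485 to 37824583), went from 2.85 and 1.92 to 345 and 322 CPM (log2 change 7.13 ± 0.10, adjusted p = 5.4e-30). Dlx2 rose from 7.32 and 7.88 to 45.6 and 40.2 CPM (log2 change 2.50 ± 0.13, adjusted p = 3.0e-16), and Tfap2c had a count ratio of 508 (173 to 2465). Sox9, which acts in cartilage and neural crest, fell from 33.6 and 37.5 to 9.01 and 9.86 CPM (log2 change -1.92 ± 0.14, adjusted p = 8.3e-13), and Lhx9 and Emx2 fell by 1.77 and 1.32 on the log2 scale.

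Pluripotency genes were mostly silent at day 4. Only 7 of 28 had enough counts to be tested, and 2 of those were higher, 2 lower and 3 not called. Sox2 stood at 1.62 and 2.02 CPM in MEF and 10.1 and 9.77 CPM in CFAE+8+MSC (log2 change 2.45 ± 0.27, adjusted p = 3.3e-09), and Tbx3 at 42.4 and 39.3 CPM in MEF and 120.2 and 120.0 CPM in CFAE+8+MSC (log2 change 1.56 ± 0.07, adjusted p = 5.2e-18). Klf4 and Klf2, reprogramming factors that fibroblasts also express, fell, Klf4 from 154 and 161 to 16.8 and 15.2 CPM (log2 change -3.30 ± 0.11, adjusted p = 1.8e-21) and Klf2 from 37.3 and 39.5 to 1.47 and 0.543 CPM (log2 change -5.24 ± 0.23, adjusted p = 3.0e-18). Pou5f1, the core pluripotency factor, Zfp42, Lin28a and Dppa3 had no counts in any library. A count of 0 over both libraries allows up to 0.14 CPM in MEF and 0.133 CPM in CFAE+8+MSC.

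Genes of extraembryonic endoderm, a state passed through in some chemical reprogramming protocols, were mixed, with 9 higher and 8 lower of 20. Sox7 went from 2 and 1.83 to 33.9 and 31 CPM (log2 change 4.09 ± 0.16, adjusted p = 4.4e-19), and Sox17, with no MEF count and an exon overlap of 16.8%, was at least 55.6-fold higher at 7.53 and 8.05 CPM. Sparc, a matrix protein gene of this list and of fibroblasts, stood at 3632 and 3639.9 CPM in MEF and 1429 and 1454 CPM in CFAE+8+MSC (log2 change -1.33 ± 0.03, adjusted p = 6.5e-24). Among the epithelial genes, Dsp, the desmosomal protein desmoplakin, rose from 16.2 and 18 to 185 and 198 CPM (log2 change 3.48 ± 0.08, adjusted p = 1.0e-25), and Krt7 fell from 20.8 and 21.2 to 1.99 and 1.9 CPM (log2 change -3.43 ± 0.22, adjusted p = 4.1e-14). Only 14 of 28 epithelial genes were tested.

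Cell cycle genes were higher by modest amounts. Of 38 DNA replication genes 32 were called higher and 1 lower (0 without MEF replicate 2 or CFAE+8+MSC replicate 2), with a median of 0.85. Of 36 mitosis genes 29 were higher and 1 lower, with a median of 0.60. Most rises in mitosis genes were below 2-fold: 3 of 36 reached it, beside 12.8% of all genes, while 16 of the replication genes did. Mcm3, a subunit of the replicative helicase, stood at 48.4 and 53.6 CPM in MEF and 121 and 119 CPM in CFAE+8+MSC (log2 change 1.23 ± 0.07, adjusted p = 5.5e-16), and Pcna, the sliding clamp, at 47.3 and 52.7 CPM in MEF and 106 and 113 CPM in CFAE+8+MSC (log2 change 1.13 ± 0.07, adjusted p = 8.8e-15). Top2a, the topoisomerase of dividing cells, stood at 137 and 132 CPM in MEF and 268 and 269 CPM in CFAE+8+MSC (log2 change 1.00 ± 0.05, adjusted p = 1.7e-16). Ccnd1, a G1 cyclin and Wnt target, rose from 254 and 270.2 to 720.5 and 710.3 CPM, with an exon overlap of 23.4%, whereas Ccnd2 fell by 0.83 on the log2 scale. The inhibitors Cdkn2a and Cdkn2b, which restrain G1 kinases and mark senescence, rose too, Cdkn2a from 40.4 and 40.4 to 109 and 110.0 CPM (log2 change 1.44 ± 0.07, adjusted p = 3.6e-17) and Cdkn2b from 84.2 and 80.9 to 138 and 145 CPM (log2 change 0.77 ± 0.06, adjusted p = 5.2e-12). In the p53 and senescence list 11 of 24 were higher and 10 lower, beside 31.9% and 32.2% of all genes, and 3 were higher in the test against a 1.2-fold change. CCAAT, the letters bound by NF-Y, stood within 250 bases before a start in 23 of 31 matched mitosis genes (74.2%), beside 40.2% of tested genes, and TTTGAA, a cell cycle element bound by the DREAM complex, in 11 (35.5%), beside 12.6%.

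Cholesterol synthesis and uptake genes fell as a list. Of 27 tested 25 were called lower, 16 at least 2-fold (32.2% and 13.8% of all genes), and none was called higher, with a median of -1.26. Without MEF replicate 1, 1 member was called higher. Msmo1, a sterol demethylation enzyme, stood at 279.8 and 264 CPM in MEF and 87 and 90.2 CPM in CFAE+8+MSC (log2 change -1.62 ± 0.06, adjusted p = 2.0e-19). Srebf2, the transcription factor that drives these genes, fell by 0.56 on the log2 scale. The export and LXR target genes were mostly called lower as well, 9 of 11, but only 3 at least 2-fold. In the test against a 1.2-fold change the lower count was 6. Their summed level did not fall, at 1239 and 1256 CPM in MEF and 1257 and 1279 CPM in CFAE+8+MSC. Apoe went from 94.9 and 93.2 to 21 and 25.3 CPM (log2 change -2.02 ± 0.09, adjusted p = 1.5e-17).

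A sterol element, TCACNCCAC, stood within 250 bases before a start in 1 of 19 matched cholesterol genes (5.3%), beside 1.3% of tested genes. That gene was Hmgcs1, an early enzyme of the pathway and a classical target of sterol regulation, which stood at 344 and 329 CPM in MEF and 162 and 162 CPM in CFAE+8+MSC (log2 change -1.06 ± 0.05, adjusted p = 4.9e-17, exon overlap 12.1%). Its RefSeq window (GRCm38.p6, chr13:119690101-119690350, plus strand) is shown as that of the only matched member that holds the letters, with the match in capitals.
Hmgcs1: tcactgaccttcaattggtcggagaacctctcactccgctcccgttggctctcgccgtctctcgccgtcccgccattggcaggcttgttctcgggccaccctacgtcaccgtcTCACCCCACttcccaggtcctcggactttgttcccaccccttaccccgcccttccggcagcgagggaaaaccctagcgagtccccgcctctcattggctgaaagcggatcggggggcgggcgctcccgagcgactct

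Other lipid genes fell too. In the adipocyte list 16 of 23 tested were lower and 1 higher. Scd1, which desaturates fatty acids, stood at 625 and 635 CPM in MEF and 275 and 279.9 CPM in CFAE+8+MSC (log2 change -1.18 ± 0.05, adjusted p = 1.7e-19), and Lpl, lipoprotein lipase, at 66.3 and 71.2 CPM in MEF and 7.88 and 7.51 CPM in CFAE+8+MSC (log2 change -3.16 ± 0.12, adjusted p = 1.3e-19). Plin2, a lipid droplet coat protein gene, was the member that rose, from 158 and 155 to 278 and 267 CPM (log2 change 0.80 ± 0.05, adjusted p = 2.4e-14).

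Stress genes under ATF4 were lower, 22 of 28 tested, with a median of -0.90. Trib3, a pseudokinase gene of amino acid stress, fell from 45.2 and 46.3 to 1.13 and 1.18 CPM (log2 change -5.31 ± 0.20, adjusted p = 5.7e-20), and Atf5 from 222 and 223 to 55.6 and 52.9 CPM (log2 change -2.04 ± 0.06, adjusted p = 3.6e-22). Phgdh, the first enzyme of serine synthesis, fell by 1.35 on the log2 scale. An exception was Slc3a2, the heavy chain of amino acid transporters, which rose from 186 and 192 to 318 and 315 CPM (log2 change 0.74 ± 0.05, adjusted p = 6.0e-14). Slc7a11, its cystine-transporting partner, is on the NRF2 list here and rose from 8.17 and 8.06 to 159 and 158 CPM (log2 change 4.28 ± 0.10, adjusted p = 1.0e-24). The NRF2 list as a whole was split, 9 higher and 14 lower of 27. Ephx1, an epoxide hydrolase gene, went from 286 and 274 to 29 and 32.3 CPM (log2 change -3.19 ± 0.08, adjusted p = 1.5e-24).

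Energy metabolism changed less. Glycolysis and hypoxia genes were lower in 16 and higher in 8 of 29. The hexokinase genes went apart, Hk2 from 54.6 and 57.1 to 151 and 173 CPM (log2 change 1.53 ± 0.07, adjusted p = 4.9e-18) and Hk1 from 147 and 146 to 70.5 and 72.2 CPM (log2 change -1.04 ± 0.06, adjusted p = 1.2e-14), as did the glucose transporter genes Slc2a3 (2.01 ± 0.11) and Slc2a1 (-1.16 ± 0.08). Of 40 respiratory chain genes of the nucleus 10 were higher, 8 lower and 22 not called, none by 2-fold. The lower count was 4 without MEF replicate 1 or CFAE+8+MSC replicate 1. By contrast, 11 of 13 mitochondrially encoded protein genes were higher and none lower, with a median of 0.67. The cytochrome oxidase subunit gene mt-Co1 stood at 5038 and 5056 CPM in MEF and 8318 and 7775 CPM in CFAE+8+MSC (log2 change 0.67 ± 0.03, adjusted p = 2.6e-17). A different size of change was seen for mt-Nd4l, a complex I subunit gene, at 3.04 and 2.11 CPM in MEF and 31.1 and 26.5 CPM in CFAE+8+MSC (log2 change 3.49 ± 0.20, adjusted p = 3.2e-15), beside 5.72 and 7.04 CPM in CFAE+8 and 3.26 and 4.19 CPM in CFAE+6. Ribosomal protein genes moved little, 16 higher, 4 lower and 30 not called, with a median of 0.04. Without MEF replicate 2 those counts were 8 higher and 8 lower, and without MEF replicate 1 there were 2 lower.

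Interferon-stimulated genes were lower in CFAE+8+MSC almost throughout. Of 30 tested 27 were called lower, 26 of them at least 2-fold, and 1 higher, with a median of -2.44. Ifitm3, a membrane protein gene that restricts viral entry, stood at 343 and 316 CPM in MEF and 95.4 and 97 CPM in CFAE+8+MSC (log2 change -1.78 ± 0.06, adjusted p = 2.5e-21). Stat2, which carries the interferon signal to the nucleus, stood at 73.7 and 79 CPM in MEF and 16.4 and 16.3 CPM in CFAE+8+MSC (log2 change -2.23 ± 0.10, adjusted p = 3.7e-18), and Irgm1, an interferon-induced GTPase gene, at 36.5 and 39.6 CPM in MEF and 3.9 and 5.06 CPM in CFAE+8+MSC (log2 change -3.09 ± 0.16, adjusted p = 1.8e-16). Ifit2 was the member that rose, from 20.8 and 21.3 to 29.5 and 33.6 CPM (log2 change 0.59 ± 0.11, adjusted p = 4.0e-05). Antigen presentation genes followed the same direction, 13 of 15 lower and none higher (1 without CFAE+8+MSC replicate 1), with B2m, the light chain of MHC class I, at 339.9 and 314 CPM in MEF and 119.9 and 101 CPM in CFAE+8+MSC (log2 change -1.57 ± 0.06, adjusted p = 6.6e-19) and H2-D1 at 229 and 218 CPM in MEF and 68.2 and 69.5 CPM in CFAE+8+MSC (log2 change -1.70 ± 0.06, adjusted p = 6.0e-20). Macrophages express many of these genes too, and the part that the fall of macrophage markers given above has in these counts was not tested.

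Chemokine genes were lower in 11 and higher in 3 of 16 tested. Cxcl12, a chemokine that stromal cells make to hold blood progenitors (ENSMUSG00000061353, mm10 chromosome 6, 117168535 to 117181367), went from 415 and 442 to 23.3 and 23.9 CPM (log2 change -4.18 ± 0.07, adjusted p = 4.2e-28). Cxcl14 went from 559 and 563 to 70.6 and 68.8 CPM (log2 change -3.01 ± 0.06, adjusted p = 2.2e-27), with 12.2 and 12.7 CPM in CFAE+8 (log2 difference 2.48 ± 0.08, adjusted p = 3.4e-20). Csf1, the macrophage growth factor, fell from 373 and 382 to 60.9 and 56.3 CPM (log2 change -2.69 ± 0.06, adjusted p = 1.6e-25). Of the NF-kappa-B genes 10 of 21 were lower and 2 higher: Vcam1, an adhesion molecule gene, fell from 141 and 127 to 9.53 and 6.87 CPM (log2 change -4.03 ± 0.12, adjusted p = 3.5e-22), while the inhibitor gene Nfkbia rose from 25.8 and 25.5 to 77.3 and 72.5 CPM (log2 change 1.55 ± 0.08, adjusted p = 3.6e-16). Cytokine receptors were lower in 16 of 25. Il1rl1, the receptor of interleukin 33 (ENSMUSG00000026069, mm10 chromosome 1, 40429570 to 40465415), went from 457 and 456 to 7.45 and 8.23 CPM (log2 change -5.86 ± 0.08, adjusted p = 3.1e-30), and Il6st and Osmr, which signal for the interleukin 6 family, fell by 2.43 and 2.74 on the log2 scale. Lifr of the same family rose, from 35.4 and 34.6 to 89 and 89.8 CPM (log2 change 1.35 ± 0.08, adjusted p = 1.8e-15).

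BMP genes moved both ways, with several ligand genes among the higher and several antagonist genes among the lower. Over the list 12 of 31 were higher and 15 lower. Bmp2 went from 5.32 and 5.95 to 165 and 152 CPM (log2 change 4.81 ± 0.09, adjusted p = 7.7e-27) and Bmp7 from 1.9 and 1.56 to 91.3 and 89.1 CPM (log2 change 5.71 ± 0.13, adjusted p = 2.2e-25). The BMP target genes Id1 and Id2 encode inhibitors of basic helix-loop-helix factors. Id1 went from 76 and 73 to 359 and 371 CPM (log2 change 2.29 ± 0.05, adjusted p = 8.3e-25) and Id2 from 39.6 and 33.5 to 200.4 and 187 CPM (log2 change 2.41 ± 0.08, adjusted p = 9.5e-22). Grem1, a secreted BMP antagonist, stood at 582 and 593 CPM in MEF and 155 and 149 CPM in CFAE+8+MSC (log2 change -1.95 ± 0.05, adjusted p = 3.6e-23), and Fst and Fstl1, which encode follistatin and a relative of it, changed by -1.22 ± 0.06 and -1.30 ± 0.04.

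Hedgehog pathway genes were higher in 10 and lower in 4 of 16, with the receptor and target gene Ptch1 at 17.1 and 21.2 CPM in MEF and 76.9 and 79.7 CPM in CFAE+8+MSC (log2 change 2.03 ± 0.09, adjusted p = 8.1e-18) and the effector Gli2 at 50.6 and 46.7 CPM in MEF and 207 and 187 CPM in CFAE+8+MSC (log2 change 2.02 ± 0.07, adjusted p = 2.2e-21). The coreceptors Boc and Cdon fell by 1.54 and 1.05 on the log2 scale. Notch genes were higher in 9 and lower in 3 of 14. Hey1, a Notch target, went from 0.285 and 0.366 to 24.4 and 25.7 CPM (log2 change 6.26 ± 0.30, adjusted p = 4.6e-17), while Hes1, another target, stood at 83.3 and 79.3 CPM in MEF and 45.6 and 41.4 CPM in CFAE+8+MSC (log2 change -0.90 ± 0.09, adjusted p = 7.0e-10), with 9.56 and 12.6 CPM in CFAE+8 (log2 difference 1.97 ± 0.12, adjusted p = 6.5e-14).

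Genes induced by ERK signalling were higher in 13 and lower in 5 of 19. The ETS factor gene Etv4 went from 20.4 and 23 to 143 and 151 CPM (log2 change 2.76 ± 0.08, adjusted p = 5.4e-23) and its relative Etv5 from 46.9 and 46.1 to 321 and 311 CPM (log2 change 2.76 ± 0.06, adjusted p = 4.2e-26). Immediate early genes were lower in 15 and higher in 5 of 22. Egr1, the serum-induced zinc finger gene on both lists, fell from 357 and 361 to 61.7 and 61.4 CPM (log2 change -2.54 ± 0.06, adjusted p = 1.6e-25), its relative Egr3 rose by 2.34 ± 0.12, and Jun rose by 0.76 ± 0.05. In CFAE+8 Egr1 stood at 204 and 200.4 CPM (log2 difference -1.72 ± 0.06, adjusted p = 6.2e-20).

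Insulin-like growth factor binding proteins went apart, Igfbp3 rising from 284 and 289.7 to 1598 and 1562 CPM (log2 change 2.46 ± 0.04, adjusted p = 7.5e-29) and Igfbp5 falling from 870.3 and 915 to 281 and 269 CPM (log2 change -1.70 ± 0.05, adjusted p = 1.5e-22). Igf1r, the receptor, fell by 1.30 on the log2 scale. Guidance genes were divided, 18 higher and 19 lower of 40, with Sema5a at 71.9 and 77.2 CPM in MEF and 953 and 941 CPM in CFAE+8+MSC (log2 change 3.67 ± 0.05, adjusted p = 5.4e-30) and Slit3 at 776 and 841 CPM in MEF and 229 and 229 CPM in CFAE+8+MSC (log2 change -1.82 ± 0.05, adjusted p = 2.0e-23).

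DNA methylation and Polycomb genes were mostly higher, 16 of 22 tested, with a median of 0.60. Jarid2, a partner of the Polycomb complex PRC2 (ENSMUSG00000038518, mm10 chromosome 13, 44729474 to 44921643), went from 20.2 and 19.6 to 394 and 389.9 CPM (log2 change 4.30 ± 0.06, adjusted p = 5.8e-30), and Ezh2, its methyltransferase subunit, from 28 and 23.4 to 85.9 and 89.1 CPM (log2 change 1.77 ± 0.08, adjusted p = 2.2e-17). Ezh1, the related subunit of resting cells, fell by 0.47 on the log2 scale. Hox genes, which keep the positional identity of fibroblasts, were lower in 13, higher in 6 and not called in 13 of 32, beside 32.2% of all genes lower. The lower count was 8 without MEF replicate 2 and 7 in DESeq2. Hoxc5 rose from 20.8 and 22.4 to 96.9 and 92.5 CPM (log2 change 2.13 ± 0.08, adjusted p = 2.1e-19) and Hoxa5 fell from 25 and 26.5 to 10.5 and 8.77 CPM (log2 change -1.42 ± 0.14, adjusted p = 6.2e-10).

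Common reference genes did not all hold still in this comparison. Of 23 tested 4 were higher, 12 lower and 7 not called, with a median of -0.15. Without MEF replicate 2 the higher count was 2. Eef1a1, an elongation factor gene, was not called at 7894 and 7692 CPM in MEF and 8141 and 7986 CPM in CFAE+8+MSC (adjusted p = 0.11, but 0.030 without MEF replicate 1 and 0.048 without CFAE+8+MSC replicate 2), and Rplp0 was not called either (adjusted p = 0.35). Actb stood at 4869 and 5052 CPM in MEF and 3795 and 3672 CPM in CFAE+8+MSC (log2 change -0.41 ± 0.03, adjusted p = 1.4e-12), and Gusb at 105 and 108 CPM in MEF and 54.8 and 50.9 CPM in CFAE+8+MSC (log2 change -1.01 ± 0.07, adjusted p = 4.5e-13).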

How the data were processed

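Read counts per gene, deposited by the authors for each library, were the only values used. The submitters' processing notes name featureCounts, Subread, DESeq2 and mm10. The aligner, annotation and strand setting are not given in these sources, and the NEBNext Ultra kit named in the labels' protocols does not mark strand. Counts were analysed in R 4.3.3 with edgeR 4.0.16 (filterByExpr, TMM, glmQLFit and glmQLFTest) on all 8 libraries, with 1 mean per group and 4 residual degrees of freedom. The genes kept held 99.85% of the counts. Where a symbol occurred more than once, the ID with the most counts was used. Genes with 1 to 3 counts in a group are given as count ratios with 95% exact intervals, and genes with no counts against a floor of 3 counts for both libraries together. The procedure was run on simulated counts with the same spread for every gene and far fewer changed genes than here. Its error rates in data like these were therefore not tested. The replicates of each group differed by more than sampling noise, and none were merged.

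The genes named are the 15 largest rises and falls among called genes of at least 5 CPM in a group whose libraries did not overlap, leaving out predicted genes, up to 4 rising and 4 falling members of each list by adjusted p with its most abundant member, the 10 highest genes per kilobase in each group, and up to 8 genes each way called in opposite directions in another cocktail. Axin2, Col6a3, Cyp26a1, Yap1, Tagln, Cd68, Adgre1, Csf1r and Itgam, the plotted genes among them, and genes given only by name in a list were chosen after their values were seen. The comparison and the gene lists were chosen with earlier results of these data known. DESeq2 1.42.0 served as an alternative. Promoters are RefSeq sequences matched by symbol, and exon overlaps come from GENCODE M21.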

Additional observations from a re-analysis of the deposited data

How the results depend on the processing

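The counts of genes called higher and lower stayed within 1.5 times of 4930 and 4981 under all 12 alternatives: other scaling, other filters, fewer libraries, a 1.2-fold minimum (3622 and 3865), DESeq2's Wald test (4026 and 4157) and leaving out a replicate (4398 to 4529 higher and 4502 to 4571 lower). In leave-one-out fits the lone library of a group is assumed to vary like the other groups. The labels number the replicates, but deviations of same-numbered MEF and CFAE+8+MSC libraries from their group means had a correlation of 0.004 across genes, so the numbers were not taken as pairs. With the replicate block 4925 genes were called higher and 4981 lower. The median log2 change over all genes was 0.01 and was highest, at 0.04, under upper-quartile scaling.

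Among list counts 1306 recomputed values stayed within 1.5 times and 38 did not. Of the values for named genes against MEF 5513 kept direction and call, 136 lost the call, 8 gained it and 5 changed sign. Against another cocktail those numbers were 556, 12, 1 and 3. The sign changes came from leaving out a replicate and the cause was not tested. Leave-one-out log2 changes against MEF ran from -0.0415 to 1.79 for Lin28b, -0.141 to 0.0469 for Med12, -0.11 to 0.000950 for Aff4, -0.82 to 0.0051 for Rpl30 and -0.0751 to 0.0047 for Yap1. Against CFAE+8 they ran from -0.0149 to 0.0627 for S1pr3, and against CFAE+6 from -0.13 to 0.0011 for Gdf7 and from -0.0655 to 0.191 for Slfn9. Rpl30 was the only one of these called with all libraries. With 2 libraries a group, genes of few counts have wide errors.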
